A study of Mus musculus with 24 samples.

Results

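The phagocyte NADPH oxidase was examined through 6 genes, *Cybb*, *Cyba*, *Ncf1*, *Ncf4*, *Rac2* and *Hvcn1*, in RNA-seq of spinal cord microglia of mice given experimental autoimmune encephalomyelitis (EAE), an inflammation of the central nervous system that is raised by immunization and serves as a model of multiple sclerosis. The genes were taken as a fixed list of symbols, matched to the Ensembl identifiers of the count table. All 6 were present among 39017 identifiers, and all 6 were among the 16535 genes with enough counts to be tested. The study compared microglia with and without a conditional deletion of *Kdm6a*, an X-linked gene for a histone H3 lysine demethylase, in both sexes. There were 4 groups of 6 libraries: female *Kdm6a* cKO, female WT, male *Kdm6a* cKO and male WT, all with EAE. The series' design text names Tmem119-Cre and RiboTag alleles for the mice of both sexes. In such mice Cre is made from the microglial gene *Tmem119*, and cells with Cre carry a tagged ribosomal protein. The labels state neither whether WT mice carried Cre nor age or day of disease. Nothing in them says that libraries came from separate animals, so p-values measure the spread between these libraries, which may be partly technical.

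This oxidase passes electrons from cytosolic NADPH across a membrane to oxygen and so makes superoxide. Its membrane core, gp91phox (*Cybb*, also called NOX2) with p22phox (*Cyba*), is inactive until cytosolic subunits, among them p47phox (*Ncf1*) and p40phox (*Ncf4*), and a GTP-bound Rac protein join it, while the proton channel encoded by *Hvcn1* lets out the protons left behind. In the central nervous system microglia are a main source of it, and loss of *Cybb*, *Cyba*, *Ncf1* or *Ncf4* in people causes chronic granulomatous disease.

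Total counts per library ranged from 27110133 to 40554736. *Kdm6a* averaged 2.50 ± 0.67 CPM (the count of a gene scaled to library size) in female cKO and 4.51 ± 1.37 CPM in female WT libraries, and 1.08 ± 0.38 CPM in male cKO and 2.79 ± 0.70 CPM in male WT libraries (SD, n = 6 each). It fell in both sexes, by 0.85 in females and by 1.36 in males on the log2 scale (edgeR, adjusted p = 0.031 and 0.016). Every male cKO library was below every male WT library for *Kdm6a*, but the female groups overlapped. Female WT 5 had the lowest *Kdm6a* of the female WT libraries. Its value lay inside the female cKO range of 1.556 to 3.483 CPM, and the cause was not tested. The 12 microglial markers summed to 7914 to 11180 CPM in female cKO, 5369 to 10360 CPM in female WT, 7053 to 9384 CPM in male cKO and 5269 to 7985 CPM in male WT libraries. *Tmem119*, the gene that drives Cre, fell in females to 213 ± 39 CPM in cKO, against 365 ± 70 CPM in WT (SD, n = 6 each, adjusted p = 0.00091). Of the 12 markers 3 were called lower and 1 higher in females. *Tmem119*, *Fcrls* (log2 change -1.17, adjusted p = 0.00091) and *Crybb1* (-1.40, adjusted p = 0.0027) were lower, and *Siglech* was higher (1.09, adjusted p = 0.0067). The median log2 change of the 12 was nonetheless 0.26 in females, against -0.02 over all genes tested. In edgeR 8 of them had an unadjusted p under 0.05. Of the 24 libraries, 4 stood apart. *Ddx3y*, a gene of the Y chromosome, had 18 counts in female WT 2 and 40 in female WT 3, *Tchh*, a hair follicle gene, had 3904 and 7365 counts in those libraries, *Xist* had 16 counts in male cKO 3, and female WT 5 was the highest female WT library for *Cyba*, *Ncf1*, *Ncf4* and *Rac2*. *Tchh* also had 474 counts in female cKO 1 and 588 in female cKO 2, against at most 176 in the rest; both were kept in the fit without the 4 and were left out singly. Tests between groups on the 6 genes are given below with and without the 4 libraries. Female WT 5 was set apart by values of the tested genes themselves. Leaving it out lowers the female WT means of *Cyba*, *Ncf1*, *Ncf4* and *Rac2* by construction. It was also the lowest female WT library for *Cybb*, at 242.5 CPM, so leaving it out raises that mean. The fit without the 4 libraries is therefore no independent check of these genes, *Cybb* included.

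All 6 genes were abundant in every group, with 1318 to 49856 counts per library. Compared per kilobase of annotated exon, the order in female cKO libraries was *Cyba* (442 ± 83 CPM per kb), *Hvcn1* (236 ± 29), *Ncf1* (166 ± 18), *Cybb* (85.7 ± 10.8), *Rac2* (50.1 ± 5.5) and *Ncf4* (25.4 ± 3.5, SD, n = 6), and each gene lay above the next in 6 of 6 libraries. In female WT libraries it was *Cyba* (530 ± 218 CPM per kb), *Ncf1* (271 ± 49), *Hvcn1* (167 ± 32), *Rac2* (77.9 ± 35.7), *Cybb* (60.3 ± 14.1) and *Ncf4* (32.7 ± 10.9, SD, n = 6). There *Rac2* and *Cybb* were not apart beyond their spread, with *Rac2* above *Cybb* in 4 of 6 libraries. Both male groups had the female WT order, with *Rac2* above *Cybb* in 4 of 6 libraries of each. The female cKO order thus differed from the other 3 groups at 2 places, with *Hvcn1* above *Ncf1* and *Cybb* above *Rac2*, each in 6 of 6 libraries.

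In female microglia the 6 genes did not move together. *Cybb* and *Hvcn1* rose in cKO and *Ncf1* and *Rac2* fell, while *Cyba* and *Ncf4* did not pass the test. These were 2 of 6 genes called higher, beside 3.32% of all genes tested, and 2 of 6 called lower, beside 4.41%, out of 7.74% called in either direction. The median log2 change of the 6 was -0.31, against -0.02 over all genes tested. In bulk RNA, fewer cells of a type and less RNA per cell cannot be told apart.

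**Figure D1:**
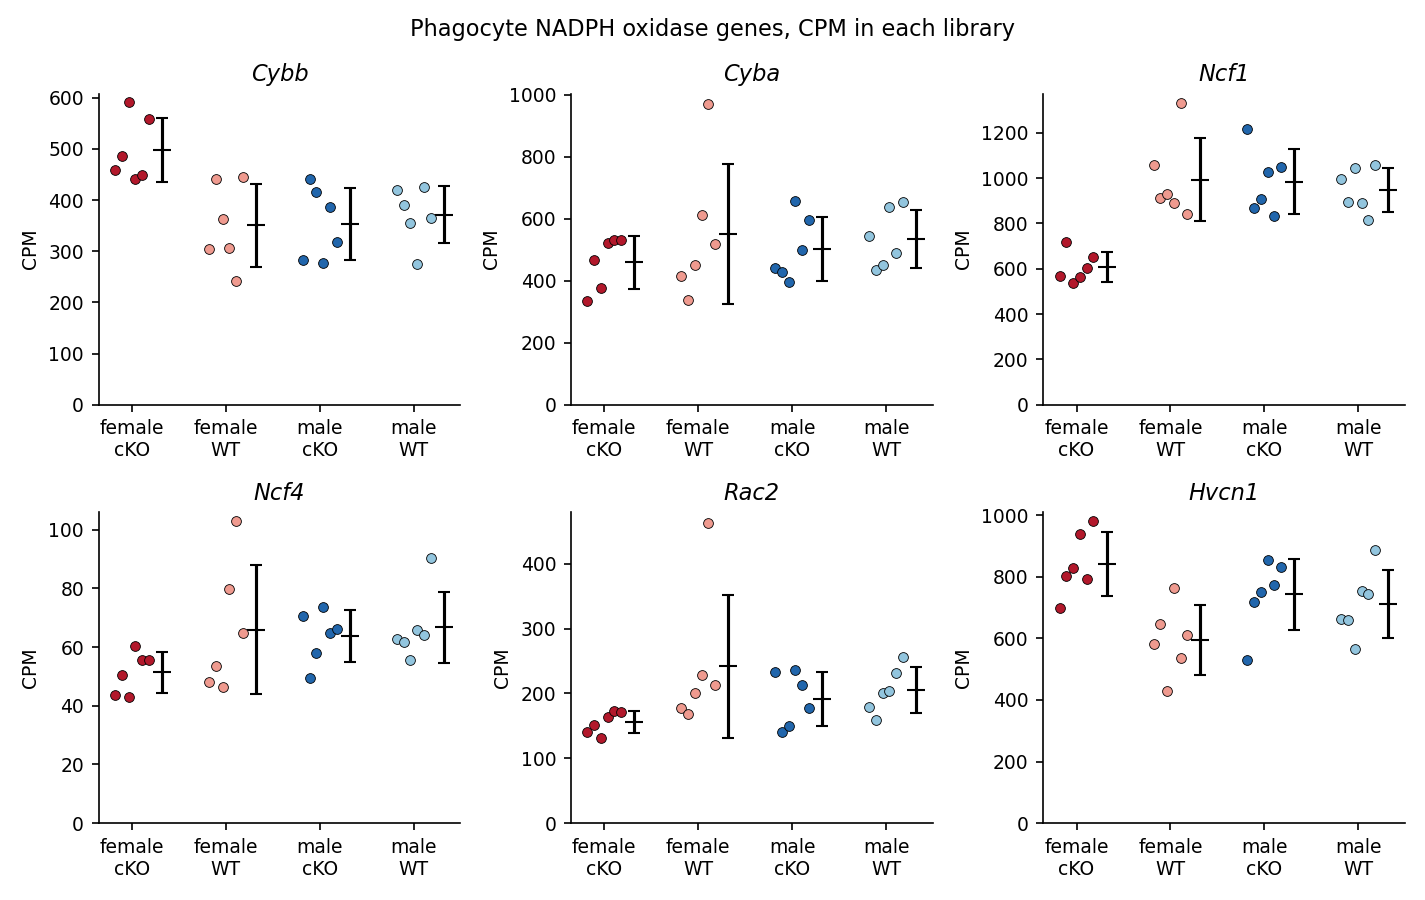
CPM of each gene (linear axes from 0) in the 24 libraries, by group; points are libraries, and the bar beside them is the mean with SD (n = 6). *Ncf1* is the only panel in which the female cKO points, 537.7 to 717.0 CPM, lie wholly below the female WT points, 840.3 to 1334 CPM.

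The membrane core was read from *Cybb* (ENSMUSG00000015340, chrX:9435252-9487771, minus strand, mm10), which encodes the electron-carrying subunit, and *Cyba* (ENSMUSG00000006519, chr8:122424776-122432930, minus strand), which encodes its stabilizing partner. *Cybb* had a lowest, median and highest value of 441.1, 472.9 and 591.1 CPM in female cKO libraries, against 242.5, 334.8 and 445.5 CPM in female WT libraries. All 6 female cKO libraries lay above the female WT median, and the groups overlapped only where the 2 highest WT libraries just passed the lowest cKO library. The log2 change was 0.51 (SE 0.15, 95% interval 0.20 to 0.81, adjusted p = 0.034), and the exact permutation test, 2-sided and with 6 libraries a group, gave p = 0.00649. The size was 0.50 without the 4 libraries that stood apart, but the adjusted p was then 0.093, and a random effect for the number that each sample's title carries gave 0.54 (adjusted p = 0.079). The call was also lost on leaving out any of female cKO 2, 3 or 6 or female WT 1, 4 or 5 (log2 change 0.42 to 0.59 over all 24 omissions). *Cyba* had 333.3, 493.8 and 530.1 CPM in female cKO, against 336.7, 483.4 and 971.4 CPM in female WT libraries. The 2 highest WT libraries lay above every cKO library and the rest overlapped, and the log2 change of -0.26 (95% interval -0.66 to 0.14) did not pass the test (adjusted p = 0.53; -0.17 without the 4 libraries, adjusted p = 0.78).

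The cytosolic organizer *Ncf1* (ENSMUSG00000015950, chr5:134220053-134229625, minus strand), which brings the other cytosolic subunits to the membrane core, had the largest log2 change of the 6 in size in the fit of all libraries. It had 537.7, 586.1 and 717.0 CPM in female cKO libraries, against 840.3, 920.8 and 1334 CPM in female WT libraries. Every female cKO library was below every female WT library, a separation seen for 4.46% of all genes tested. The cKO mean was 61.2% of the WT mean, with a log2 change of -0.71 (SE 0.12, 95% interval -0.95 to -0.47, adjusted p = 0.00019), and the exact permutation p of 0.00216 is the smallest that 6 against 6 libraries can give. The call held in all 24 fits that each left out a library (log2 change -0.76 to -0.61) and in the 13 other alternatives (-0.74 to -0.56), among them the fit without the 4 libraries that stood apart (-0.61, adjusted p = 0.0041). In replicates 1 to 3 alone the change was -0.67 (adjusted p = 0.028) and in replicates 4 to 6 alone -0.74 (adjusted p = 0.036). The female cKO libraries of replicates 1 to 3 all carry the same title number. They may therefore not be independent replicates, and in that set genotype cannot be told apart from title number. *Ncf1* shares 408 exon bases, 11.1% of its exon length, with the antisense gene *Gtf2ird2*, which averaged 37.8 CPM against 884 CPM for *Ncf1* over the 24 libraries.

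*Ncf4* (ENSMUSG00000071715, chr15:78244801-78262580, plus strand), whose product binds phosphatidylinositol 3-phosphate on phagosomes, had 42.9, 52.9 and 60.4 CPM in female cKO libraries, against 46.5, 59.1 and 103.0 CPM in female WT libraries. The groups overlapped over most of the cKO range, and the log2 change of -0.36 (95% interval -0.70 to -0.02) did not pass after adjustment (adjusted p = 0.22; -0.33 without the 4 libraries, adjusted p = 0.36).

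*Rac2* (ENSMUSG00000033220, chr15:78559167-78572783, minus strand) encodes the blood-cell Rac GTPase that completes the active complex. It had 131.7, 157.6 and 173.7 CPM in female cKO libraries, against 168.4, 206.8 and 463.3 CPM in female WT libraries. All 6 cKO libraries lay below the WT median, with overlap at the lowest WT library, and female WT 5 lay far above the rest. The log2 change was -0.64 (SE 0.19, 95% interval -1.04 to -0.24, adjusted p = 0.041; exact permutation p = 0.00649). Without female WT 5 it was -0.34 (adjusted p = 0.18), and without all 4 libraries that stood apart -0.41 (adjusted p = 0.16). A random effect for the title number gave -0.57 (adjusted p = 0.11). In all, the call was lost in 11 of the 24 omissions and in 8 of the 13 other alternatives.

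*Hvcn1* (ENSMUSG00000064267, chr5:122206804-122242297, plus strand), the voltage-gated proton channel, had 699.9, 815.7 and 982.1 CPM in female cKO libraries, against 427.4, 597.1 and 764.3 CPM in female WT libraries. All 6 cKO libraries lay above the WT median, and the groups overlapped between the lowest cKO and the highest WT library. The log2 change was 0.50 (SE 0.13, 95% interval 0.22 to 0.78, adjusted p = 0.018; exact permutation p = 0.00433), and without the 4 libraries that stood apart it was 0.36 (adjusted p = 0.23). *Hvcn1* shares 1574 exon bases, 44.2% of its exon length, with the antisense gene *Tctn1*, a gene of the ciliary transition zone. *Tctn1* followed *Hvcn1* over the 24 libraries (r = 0.99, rho = 0.997) and also rose in females (log2 change 0.49, adjusted p = 0.024). Because the strand setting of the counting is not given in the sources used here, reads of the 2 genes cannot be told apart with certainty.

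Promoter windows were read for the genes on both sides of this split. RefSeq windows of 250 bases before to 50 after the annotated start (GRCm38.p6, the build of mm10) were available here for 3 of the 6 genes, *Cybb*, *Cyba* and *Ncf1*. Interferon regulatory factors (IRFs), alone or with the Ets factor PU.1, are known to act on oxidase genes in myeloid cells, so 3 motifs were searched on both strands: GAAANNGAAA (paired IRF half-sites), GGAANNGAAA (a composite Ets and IRF element) and GAGGAA (a PU.1 core). The *Ncf1* and *Cybb* sequences are shown because these genes moved in opposite directions in females. Capitals mark GAAANNGAAA matches, unless another motif is named.
*Ncf1*, chr5:134229626-134229875, minus strand: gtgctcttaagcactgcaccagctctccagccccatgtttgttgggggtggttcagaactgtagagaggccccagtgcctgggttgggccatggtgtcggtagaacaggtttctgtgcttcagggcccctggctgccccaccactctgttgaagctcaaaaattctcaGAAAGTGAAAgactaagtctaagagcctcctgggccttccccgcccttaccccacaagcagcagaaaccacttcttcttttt
*Cybb*, chrX:9469325-9469574, minus strand: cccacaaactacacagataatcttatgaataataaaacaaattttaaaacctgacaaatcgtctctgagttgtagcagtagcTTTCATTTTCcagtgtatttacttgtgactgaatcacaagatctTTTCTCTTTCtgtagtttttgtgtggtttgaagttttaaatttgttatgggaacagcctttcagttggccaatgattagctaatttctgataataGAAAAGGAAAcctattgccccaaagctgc
*Cybb*, chrX:9469302-9469331, minus strand, GGAANNGAAA match in capitals: aagctgctgtTTTCATTTCCtcatcagaag
The *Ncf1* window held 1 GAAANNGAAA match, first base at -82. The *Cybb* window held 3 GAAANNGAAA matches, first bases at -168, -124 and -29. It also held, on the reverse strand from +4, a GGAANNGAAA match that overlaps a GAGGAA match from +10. Of all 32817 RefSeq promoter windows of this length, 3.43% held GAAANNGAAA, 2.72% GGAANNGAAA and 28.3% GAGGAA. The *Cyba* window held none of the 3. A match describes letters in the window and shows no binding. The window follows the RefSeq start of *Cybb*, which lies inside the longer span given above.

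In male microglia 0 of the 6 genes were called, beside 0.187% of all genes tested (edgeR; 0 at an unadjusted p under 0.05, and 0 by DESeq2 or by limma with voom weights). *Cybb* had 276.9, 351.8 and 440.5 CPM in male cKO libraries, against 275.9, 377.6 and 426.2 CPM in male WT libraries. *Ncf1* had 831.6, 968.9 and 1216 CPM in male cKO libraries, against 815.0, 944.1 and 1058 CPM in male WT libraries. In both genes the male groups overlapped over most of their range. *Rac2* had 141.3, 195.6 and 236.5 CPM in male cKO libraries, against 159.8, 202.4 and 256.5 CPM in male WT libraries. *Hvcn1* had 531.1, 760.9 and 853.3 CPM in male cKO libraries, against 564.5, 702.5 and 885.8 CPM in male WT libraries. None of the 6 separated the male groups, which 0.575% of all genes tested did. The male log2 changes were between -0.10 and 0.06, and the exact permutation p-values between 0.55 and 0.677; without the 4 libraries the log2 changes were between -0.13 and 0.08. Their 95% intervals were -0.38 to 0.23 for *Cybb*, -0.19 to 0.29 for *Ncf1*, -0.49 to 0.30 for *Rac2* and -0.21 to 0.34 for *Hvcn1*. The female changes from the fit of all libraries lay outside these intervals for these 4 genes. This did not hold in every setting for *Rac2*, whose female change was as small as -0.34 with 1 library left out, inside the male interval. For *Hvcn1* the smallest female change over the alternatives was 0.35, just above the male interval. Setting a female change against a male interval leaves out the spread of the female estimate and tests no sex difference. The female and male 95% intervals overlapped for *Cybb*, *Rac2* and *Hvcn1*.

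**Figure D2:**
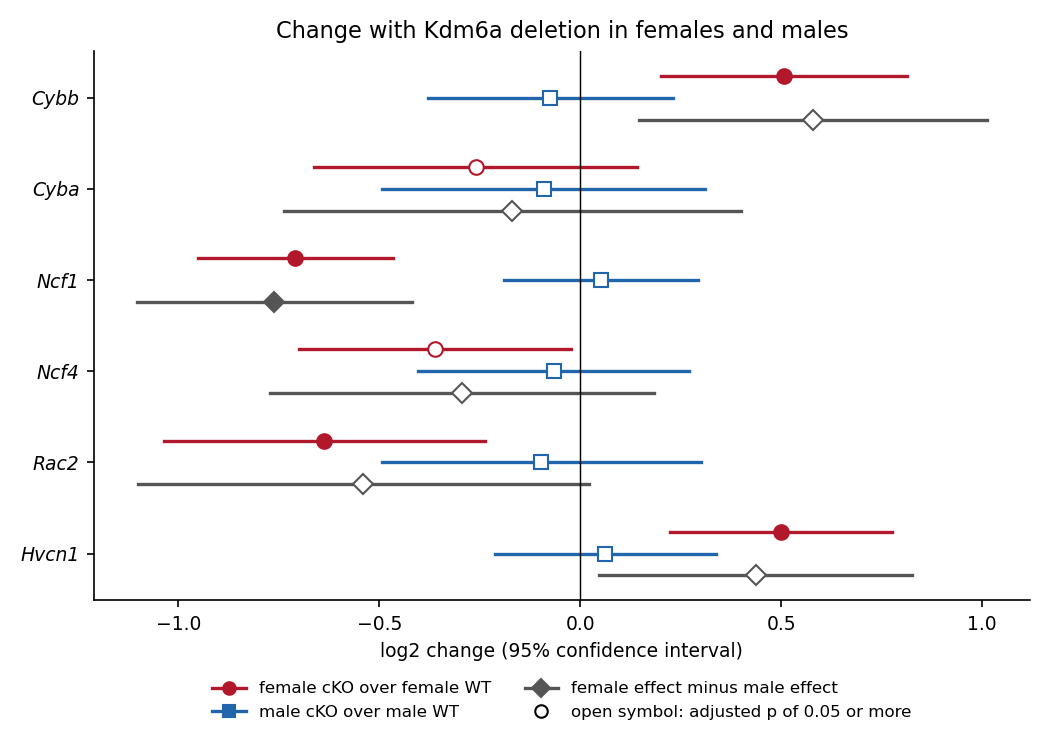
Log2 change with its 95% confidence interval (horizontal axis) for the 6 genes: female cKO over female WT (red circles), male cKO over male WT (blue squares) and the female effect minus the male effect (grey diamonds). Filled symbols passed an adjusted p under 0.05; the only filled diamond is *Ncf1*, at -0.76.

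The difference between the sexes in the cKO effect was itself tested, and passed for *Ncf1* alone of the 6, beside 0.411% of all genes tested. The female effect minus the male effect was -0.76 for *Ncf1* on the log2 scale (SE 0.17, 95% interval -1.10 to -0.42, adjusted p = 0.034). Leaving out single libraries gave -0.81 to -0.66 with adjusted p from 0.024 to 0.073, and the call was lost in 12 of those 24 fits: without female cKO 1, 3, 4 or 5, female WT 1, male cKO 1, 4 or 6, or male WT 1, 2, 4 or 5. It was also lost without the 4 libraries that stood apart (-0.69, adjusted p = 0.10). The difference was 0.58 for *Cybb* (95% interval 0.15 to 1.01, adjusted p = 0.43), -0.54 for *Rac2* (-1.10 to 0.02, adjusted p = 0.73) and 0.44 for *Hvcn1* (0.05 to 0.83, adjusted p = 0.60), and a sex difference was therefore not called for these 3, nor without the 4 libraries (0.62, -0.38 and 0.30, adjusted p = 0.44, 0.87 and 0.93). For *Cyba* it was -0.17 and for *Ncf4* -0.30, with intervals that included 0. Averaged over the sexes, *Ncf1* alone of the 6 was called (log2 change -0.33, SE 0.08, adjusted p = 0.013), beside 6.54% of all genes tested, and this call was lost without the 4 libraries (-0.27, adjusted p = 0.071).

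The sexes were also compared within a genotype, since *Cybb* lies on the X chromosome. Between cKO females and cKO males, *Ncf1* was lower in females by a log2 difference of -0.70 (95% interval -0.94 to -0.45, adjusted p = 0.00085), the only call among the 6, beside 1.98% of all genes tested; without the 4 libraries the difference was -0.73 (adjusted p = 0.00034). *Cybb* differed by 0.49 between these groups (95% interval 0.19 to 0.80) and missed the threshold (adjusted p = 0.096), which it passed without the 4 libraries (0.54, adjusted p = 0.033). Between WT females and WT males, 0 of the 6 genes were called (edgeR; 0 also at an unadjusted p under 0.05), beside 0.0363% of all genes tested. The WT differences were -0.09 for *Cybb* (95% interval -0.39 to 0.22) and 0.07 for *Ncf1* (-0.18 to 0.31), and those of the other 4 were between -0.26 and 0.24; without the 4 libraries that stood apart all 6 were between -0.13 and 0.00 and 0 were called.

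The opposite female changes of *Cybb* and *Hvcn1* on one side and *Ncf1* on the other also showed in ratios of counts within each library. The ratio of *Cybb* to *Ncf1* counts needs no scaling between libraries; it was chosen after the values had been seen and was not tested. Its lowest, median and highest values were 0.679, 0.793 and 1.10 in female cKO libraries, against 0.182, 0.368 and 0.530 in female WT libraries. It was 0.232, 0.380 and 0.507 in male cKO libraries, against 0.309, 0.383 and 0.523 in male WT libraries. All 6 female cKO libraries lay above the other 18. The ratio of *Hvcn1* to *Ncf1* counts was 1.12 to 1.66 in female cKO libraries, against 0.402 to 0.858 in female WT libraries. In males it was 0.437 to 0.929 in cKO and 0.541 to 0.913 in WT libraries. Other ratios overlapped between the female groups. *Cybb* to *Rac2* was 2.59 to 4.49 in female cKO and 0.523 to 2.62 in female WT libraries. *Cybb* to *Cyba* was 0.847 to 1.57 and 0.250 to 1.31 in these groups, and *Ncf4* to *Ncf1* 0.0703 to 0.107 and 0.0456 to 0.0897.

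**Figure D3:**
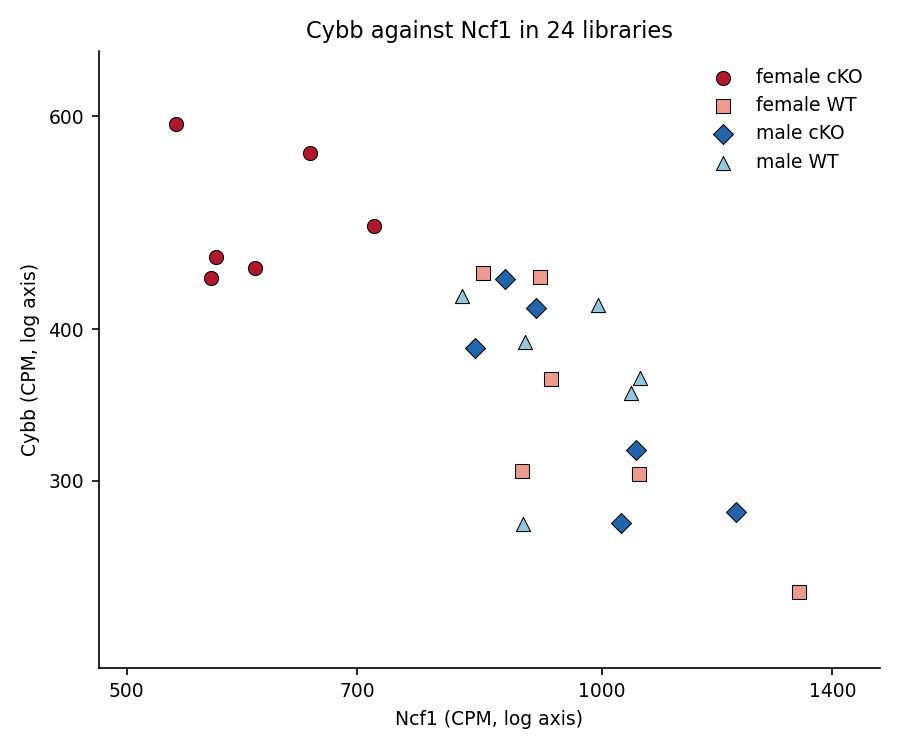
*Cybb* CPM (vertical, log axis) against *Ncf1* CPM (horizontal, log axis) in the 24 libraries, by group. The 6 female cKO libraries sit at the upper left, at 441.1 to 591.1 CPM of *Cybb* and 537.7 to 717.0 CPM of *Ncf1*, apart from the other 18.

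Within groups the genes varied in 2 directions. Log2 CPM values were taken as deviations from the group means, and the 15 pairs of the 6 genes were correlated over 24 libraries, with 2-sided permutation within groups and adjustment over the 15 pairs. The correlation of *Cyba* with *Ncf4* was r = 0.85 and rho = 0.81 (p = 1e-05 and 2e-05, adjusted p = 0.00015 and 0.00022), where 1e-05 is the smallest p the permutations can give, and that of *Ncf4* with *Rac2* was r = 0.84 and rho = 0.81 (p = 2e-05 and 3e-05, adjusted p = 0.00015 and 0.00022). *Cyba* and *Rac2* had r = 0.81 and rho = 0.75 (p = 0.0001 and 0.00021, adjusted p = 0.0005 and 0.001). *Cybb* went the other way, with r = -0.60 and rho = -0.57 against *Ncf1* (p = 0.0072 and 0.0093, adjusted p = 0.021 and 0.035). Its r was -0.60 against *Cyba* (rho = -0.53, p = 0.0083 and 0.019, adjusted p = 0.021 and 0.05) and -0.62 against *Rac2* (rho = -0.53, p = 0.0067 and 0.02, adjusted p = 0.021 and 0.05). Without female WT 5, r was 0.76, 0.75 and 0.67 for the 3 positive pairs in the order given, and -0.47, -0.45 and -0.47 for *Cybb* with *Ncf1*, *Cyba* and *Rac2*. Without the 2 libraries farthest from the median, r was 0.79, 0.72 and 0.65 for the positive pairs, and -0.58, -0.43 and -0.52 for those with *Cybb*. Replicates 1 to 3 had TMM scaling factors (corrections of library size) of 1.0035 to 1.17 and replicates 4 to 6 of 0.873 to 1.03, so the relations were also computed within each set. *Cyba* with *Ncf4* had r = 0.17 in replicates 1 to 3 and 0.83 in replicates 4 to 6, *Ncf4* with *Rac2* 0.56 and 0.79, and *Cyba* with *Rac2* 0.36 and 0.78. The first of these did not hold in replicates 1 to 3, and the third was much weaker there. *Cybb* with *Ncf1* had r = -0.77 in replicates 1 to 3 and -0.59 in replicates 4 to 6, and with *Rac2* -0.76 and -0.48, while with *Cyba* it had -0.22 and -0.83 and so was also much weaker in replicates 1 to 3. Of the 15 pairs, these 6 had an adjusted p for r under 0.05. The share among pairs of other genes was not computed, so whether these relations are particular to the oxidase genes was not tested.

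The genes whose log2 CPM over the 24 libraries was most like each of the 6 were taken from 9347 named protein-coding genes with a mean of at least 5 CPM, as a description, since group differences and library effects enter these correlations. *Ncf1* was most like *Cd300lf* (r = 0.92), *Fcgr4* (r = 0.92), which encodes an activating IgG receptor, and *Treml2* (r = 0.91), and these had female log2 changes of -2.49, -3.28 and -1.60. *Cybb* was most like *Sgms1* (r = 0.86), a sphingomyelin synthase gene, *Actn1* (r = 0.86), an actin crosslinker gene, and *Nck1* (r = 0.85), with female log2 changes of 1.10, 0.73 and 0.45. *Cyba* was most like *Akr1a1*, *Napa* and *Sgta* (r = 0.97, 0.97 and 0.96), *Ncf4* most like *Sharpin*, *Aup1* and *Gfer* (r = 0.94, 0.94 and 0.93), and *Rac2* most like *Jpt1*, *Pmf1* and *E2f4* (r = 0.95 each). *Hvcn1* was most like *Tctn1*, with which it shares exons, and then *Pip5k1c* (r = 0.93) and *Maged1* (r = 0.91).

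Genes around the oxidase were described as lists, each by its counts of calls and its median. Of 6 further partners (*Rac1*, *Rap1a*, the Rac-binding *Arhgdia* and *Arhgdib*, the chaperone gene *Cybc1*, and *Nrros*), 0 were called in females (edgeR; 2 at an unadjusted p under 0.05), with a median log2 change of -0.16 against -0.02 over all genes tested. *Nrros*, whose product promotes breakdown of gp91phox, had 94.2 ± 6.2 CPM in female cKO and 120.6 ± 27.5 CPM in female WT libraries (SD, n = 6 each, log2 change -0.36, adjusted p = 0.20). Of 15 genes of the signalling that activates the oxidase, 1 rose and 1 fell. *Tiam1*, an exchange factor that loads Rac with GTP, rose (log2 change 1.01, adjusted p = 0.04), and *Plcg2*, a phospholipase downstream of Fc receptors, fell (-0.50, adjusted p = 0.0097). The median of the 15 was -0.12.

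Among transcription factors of oxidase genes, 0 of 9 tested rose and 1 fell in females, with a median of -0.03. *Irf1* averaged 112.9 ± 21.8 CPM in female cKO and 233 ± 149 CPM in female WT libraries (SD, n = 6 each, log2 change -1.04, adjusted p = 0.024). The highest female WT library had 532.0 CPM of *Irf1*, against a median of 192.2 CPM in that group. Calls on single genes of the lists around the oxidase were not repeated without the 4 libraries that stood apart. *Spi1*, which encodes PU.1, had a log2 change of -0.03 (95% interval -0.49 to 0.43) and *Irf8* of 0.26 (0.04 to 0.47, adjusted p = 0.15). Of 12 tested genes that handle superoxide and peroxide, 2 rose and 1 fell, with a median of -0.03. *Prdx1*, a peroxiredoxin, rose (log2 change 0.60, adjusted p = 0.013), as did *Txnrd1*, a thioredoxin reductase (0.43, adjusted p = 0.0046), and *Gpx1*, a glutathione peroxidase, fell (-0.64, adjusted p = 0.039). Of 12 genes that supply NADPH, 0 were called in females (edgeR; 4 at an unadjusted p under 0.05), with a median of 0.09. Of the other NADPH oxidases and their partners, 3 of 9 had enough counts to be tested, and 0 of those were called (1 at an unadjusted p under 0.05). *Nox4* had at most 0.16 CPM in any library. In males 0 genes of these lists were called (edgeR), and 2 had an unadjusted p under 0.05, *Duoxa1* (log2 change 1.59) and *H6pd* (-0.36). Averaged over the sexes, *Duoxa1* was called higher (log2 change 1.58, edgeR adjusted p = 0.018), with a mean of at most 1.05 CPM in any group. *Prdx1* and *Txnrd1* were also called higher in that comparison and *H6pd* lower, beside 6.54% of all genes tested.

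Blood cells also express this oxidase, and their markers were read from the same libraries. Of 13 neutrophil markers, 9 had a mean under 1 CPM over the 24 libraries and *Ly6g* had 0 counts in all 24 libraries; the list summed to 204 to 257 CPM in female cKO, 159 to 240 CPM in female WT, 172 to 279 CPM in male cKO and 193 to 251 CPM in male WT libraries, mostly from *Csf3r*. Of its 5 tested markers, 0 rose and 1 fell in females (edgeR, with 2 at an unadjusted p under 0.05). Of 12 monocyte markers, 9 had a mean under 1 CPM. This list summed to 606 to 1060 CPM in female cKO, 274 to 641 CPM in female WT, 398.5 to 1136 CPM in male cKO and 298 to 486 CPM in male WT libraries. In females its members split, with *Ly6c2*, *F13a1* and *Ms4a4c* lower and *Fn1* and *Cd44* higher. *Fn1* averaged 722 ± 173 CPM in female cKO and 319 ± 149 CPM in female WT libraries, and *Ly6c2* 0.022 ± 0.054 CPM in female cKO and 0.545 ± 0.613 CPM in female WT libraries (SD, n = 6 each). Of 7 B-cell markers, 5 had a mean under 1 CPM and *Ighm* rose in females (log2 change 0.63, adjusted p = 0.048), while the list summed to 291 to 391 CPM in female cKO, 132 to 310 CPM in female WT, 162 to 322 CPM in male cKO and 123 to 269 CPM in male WT libraries. Of the tested markers of other cells, 1 of 5 for border macrophages fell, 1 of 5 for dendritic cells rose (*Fscn1*, log2 change 1.86, adjusted p = 1.3e-06) and 1 fell (*Xcr1*, -3.67, adjusted p = 0.00012), and 0 of 7 for T cells, 8 for neurons, 7 for astrocytes and 8 for oligodendrocytes were called in females (edgeR; 1, 0, 0 and 0 at an unadjusted p under 0.05). The dendritic cell list summed to 661 to 818 CPM in female cKO, 126 to 335.5 CPM in female WT, 216 to 453 CPM in male cKO and 150.2 to 266 CPM in male WT libraries, nearly all of it from *Fscn1*, and the female groups did not overlap. Of its 7 markers, 5 had a mean under 1 CPM over the 24 libraries. The mean of *Fscn1* was 729.1 ± 61.1 CPM in female cKO and 201.2 ± 79.4 CPM in female WT libraries (SD, n = 6 each). RNA of nervous tissue was also present. The oligodendrocyte list summed to 2617 to 3722 CPM in female cKO, 2482 to 3378 CPM in female WT, 2353 to 3291 CPM in male cKO and 2669 to 3053 CPM in male WT libraries. With the mean log2 level of the neutrophil and monocyte markers as a covariate, the female log2 change was -0.57 for *Ncf1* (adjusted p = 0.0011), 0.41 for *Cybb* (adjusted p = 0.17), -0.39 for *Rac2* (adjusted p = 0.38) and 0.35 for *Hvcn1* (adjusted p = 0.12). This mean level was 1.99 ± 0.08 in female cKO and 2.23 ± 0.37 in female WT libraries (SD, n = 6 each), with a highest value of 2.81 in female WT 5. It was thus lower in female cKO, while the summed CPM of the monocyte list was higher there. Since it averages markers that moved in both directions, it is no measure of cell content. The part of these cells in the results was not tested further.

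The female calls were compared over 24 fits that each left out 1 library and 13 other alternatives. *Ncf1* was called in 24 of 24 and 13 of 13, *Hvcn1* in 23 of 24 and 9 of 13, *Cybb* in 18 of 24 and 7 of 13, and *Rac2* in 13 of 24 and 5 of 13. All 4 kept their direction throughout, while *Cyba* and *Ncf4* were called in none, with log2 changes of -0.40 to -0.02 and -0.52 to -0.12.

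**Figure D4:**
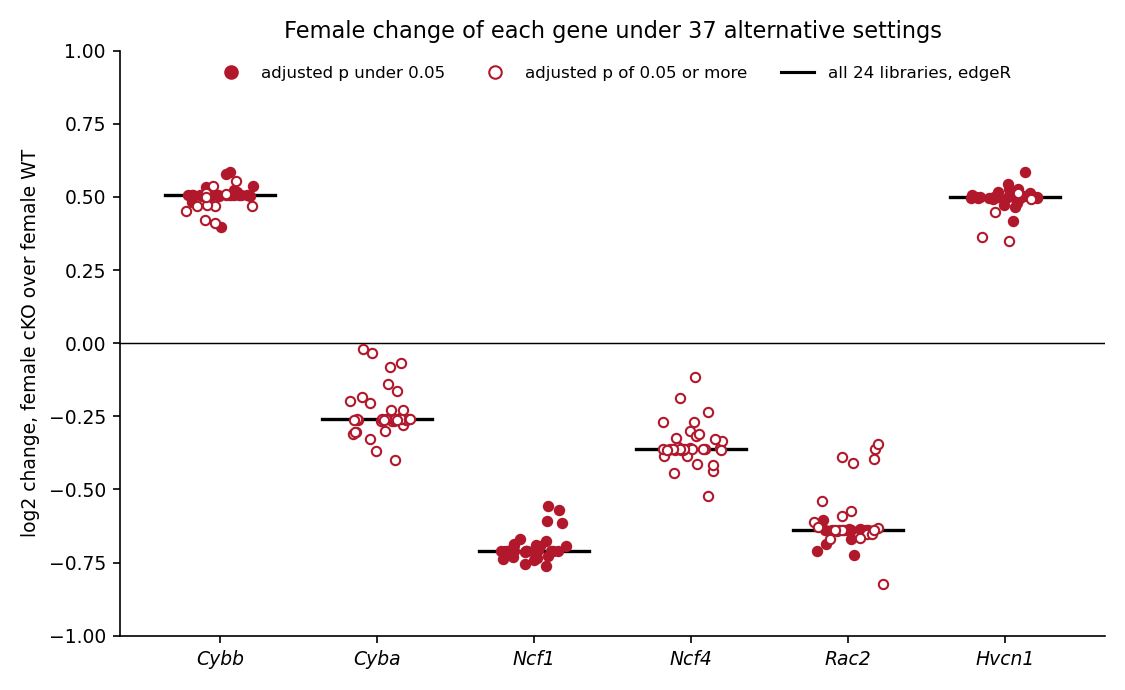
Log2 change of female cKO over female WT (vertical axis) for the 6 genes; each point is 1 alternative setting (24 that leave out a library and 13 others), filled where the adjusted p was under 0.05, and the black line is the value from all 24 libraries. All *Ncf1* points are filled, between -0.76 and -0.56, while *Cybb*, *Rac2* and *Hvcn1* have both kinds.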

How the data were processed

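RNA from spinal cord microglia was measured in 24 libraries. Per the labels' protocols, a Direct-zol kit and a KAPA Stranded kit with mRNA selection were used. The genome build was mm10 and the tools bcl2fastq 2.17, FastQC and Trimmomatic, per the submitters' processing notes; aligner, counter, strand setting and annotation: not given in the sources used here. Raw counts per gene were deposited as 1 table; 96.6% of its identifiers matched GENCODE M21. From it, edgeR 4.0.16 (R 4.3.3, limma 3.58.1) tested 16535 genes left by filterByExpr with TMM scaling, quasi-likelihood tests, all 4 groups in 1 fit and Benjamini-Hochberg adjustment; an adjusted p under 0.05 was a call. CPM used TMM library sizes. Intervals are 95% and come from that fit. The procedure was tested on simulated data. Total counts were 27110133 to 40554736, so replicate spread, not depth, limits these genes.

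Genes named were the 6 oxidase genes, *Kdm6a* and *Nrros*, up to 4 called genes with the smallest p in each of 17 lists, and the 3 most similar genes; others (single markers, overlapping genes) were chosen after their values were seen. Some genes that this rule or the lists would take are not reported here. The genes, lists, motifs and doubted libraries were chosen with earlier results of these data known. Replicate numbers follow accession order. Alternatives were DESeq2 1.42.0, RLE factors, 2 other filters, the compared groups alone, 2 marker covariates, voom quality weights, the number in the titles as a random effect, replicates 1 to 3 and 4 to 6, the 4 doubted libraries (female WT 2, 3 and 5 and male cKO 3) out, and each library out in turn.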

Additional observations from a re-analysis of the deposited data

Results flagged for a closer look

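The female and male effects of *Kdm6a* deletion on *Ncf1* differed in the test of the difference itself, by -0.76 on the log2 scale (adjusted p = 0.034); the female groups were 607.6 ± 66.6 CPM in cKO and 994 ± 181 CPM in WT, and the male groups 984 ± 143 CPM in cKO and 949 ± 97 CPM in WT (SD, n = 6 each). In *Rac2*, female WT 5 lay far above the other 5 female WT libraries, at 463.3 CPM, with a gap to the next library of 0.796 of the group's range. In *Ncf4*, male WT 6 lay above the other 5 male WT libraries, at 90.4 CPM, with a gap of 0.701 of the range. Both gaps pass Dixon's 95% critical value for 6 samples, which chance passes in about 1 in 20 groups, so about 1 is to be expected over the 24 pairs of gene and group examined.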

How the results depend on the processing

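*Ncf1* in females kept its direction and its call in all 37 alternatives, and no call on the 6 genes changed sign. In females 4 of the 6 genes were called; the count was 2 with the compared groups alone or the title number as a random effect (*Cybb* and *Rac2* lost in both), and 1 with the neutrophil and monocyte covariate, without the 4 doubted libraries, and in replicates 1 to 3 or 4 to 6 alone. All female genes called were 1279, against 852 with that covariate, 458 and 658 in the 2 replicate sets and 803 with the title number. Male calls were 31, against 49 with the covariate, 48 without the doubted libraries, 0 and 0 in the replicate sets, 90 with voom weights, 2 with the title number and 79 with DESeq2. Averaged over sexes, the oxidase genes called were 1, against 0 with the covariate, without the doubted libraries, in either set and with the title number, 2 with the nervous tissue covariate and with voom weights, and 3 with a term for the replicate sets; all genes called were 463 and 546 in the sets and 330 with the title number. For the sex difference, *Ncf1* was not called (0 genes) with no filter, without the doubted libraries, in either set and with voom weights, and all genes called were 111 with the set term, 15 and 4 in the sets, 104 with the title number and 142 with DESeq2. For WT females against WT males, 2 genes were called with the groups alone. For cKO females against cKO males, 2 oxidase genes were called with the groups alone, without the doubted libraries, with voom weights, the title number or DESeq2, and 0 in replicates 4 to 6; all genes called were 515 with the groups alone, 549 without the doubted libraries, 516 with the set term, 129 and 75 in the sets, 609 with voom weights and 521 with DESeq2.

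Leaving out single libraries, the oxidase genes called were 1 to 4 in females (1 without female cKO 6), 1 to 2 averaged over sexes, 0 to 1 for the sex difference and 1 to 2 for cKO females against cKO males; all genes called were 15 to 63 in males, 43 to 87 for the sex difference and 208 to 515 for cKO females against cKO males. Sign changes were seen only in log2 values that no setting called. In males they were *Ncf1* at -0.003 (voom weights), and *Cyba* at 0.056, *Ncf4* at 0.037 and *Rac2* at 0.011 (title number), with ranges over single omissions of -0.021 to 0.096 for *Ncf1* and -0.11 to 0.04 for *Ncf4*. For the sex difference, *Cyba* was 0.15 in replicates 1 to 3 and 0.01 with voom weights (-0.28 to 0.071 over omissions). For WT females against WT males, *Cyba* was -0.093 with the covariate, -0.064 without the doubted libraries, -0.002 with the set term, -0.25 in replicates 1 to 3 and -0.04 with voom weights (omissions -0.20 to 0.14). There *Ncf1* was -0.025, -0.038, -0.015 and -0.032 with the covariate, without the doubted libraries, in replicates 1 to 3 and with voom weights (omissions -0.037 to 0.11). *Ncf4* was 0.11 with the nervous tissue covariate, 0.16 in replicates 4 to 6 and 0.032 with the title number (omissions -0.19 to 0.09). *Cybb* ranged over omissions from -0.17 to 0.00 and *Rac2* from -0.056 to 0.32. For cKO females against cKO males, *Cyba* was 0.10 with the nervous tissue covariate. The cause of these shifts was not tested. No title number occurs in both genotypes, so those numbers and genotype cannot be fully told apart. Several libraries of a genotype share a title number, and in replicates 1 to 3 the cKO libraries of both sexes all carry the same one. No paired analysis was possible because, between cKO and WT, the replicate numbers follow accession order and the title numbers pair no libraries; title numbers that occur in both sexes of a genotype entered only as the random effect.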
